A study of Mus musculus with 3 samples.

Results

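The CC chemokines described here are 10 of the 32285 genes in the deposited count tables: Ccl2, Ccl3, Ccl4, Ccl5, Ccl6, Ccl7, Ccl8, Ccl9, Ccl12 and Ccl24. They were chosen by name, with no threshold on their values, and each of the 10 was counted in all 3 libraries. The libraries hold single-cell RNA profiles of live, nucleated CD45+ cells sorted from digested mouse aortas, with the adventitia left on. All the mice are labelled ApoE-/- on the C57BL/6J background, a model in which lipoprotein clearance is impaired. The control library came from mice with no further treatment named. The library labelled HHcy came from mice given homocysteine in the drinking water at 1.8 g/L for 4 weeks, and the WD library from mice fed a western diet for 4 weeks. Each group is 1 library, and how many mice were pooled is not given in the sources used here. No difference between libraries therefore has a replicate check, no p-value is given, and mouse-to-mouse variation cannot be told apart from treatment. Both comparisons share the control library.

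Chemokines are small secreted proteins that guide leukocytes through receptors on their surface. In the artery wall of ApoE-deficient mice, monocytes enter partly through the receptor CCR2, whose ligands include Ccl2, Ccl7 and Ccl12. Ccl3, Ccl4 and Ccl5 are inflammatory ligands that attract monocytes and T cells, Ccl6 and Ccl9 are rodent ligands of CCR1, mouse Ccl8 signals through CCR8, and Ccl24 is an eosinophil attractant that acts on CCR3.

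Filters left 5454 cells in the control library, 6497 in the library labelled HHcy and 5357 under WD, with median depths of 7658, 6803 and 8219 UMIs (counts of distinct RNA molecules) per cell. Between 20 and 24 cell barcodes were shared by each pair of libraries. The library labelled HHcy goes against its genotype label. Apoe stood at 374 counts-per-million (CPM, the gene's UMIs scaled to the total of the library or class) there, against 16.3 CPM in control and 19.3 CPM under WD. In macrophage/monocyte-like cells, 195 of 1229 had 10 or more Apoe UMIs in the library labelled HHcy, against 1 of 1966 and 2 of 2732. Which part of Apoe is deleted is not stated, so a 3′ count does not settle the genotype. All 3 libraries carry the same genotype label, and why Apoe was higher in 1 of them was not tested. The ratios of Ccl2, Ccl7, Ccl8, Ccl12 and Ccl24 in macrophage/monocyte-like cells are also given without cells of 10 or more Apoe UMIs.

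The members lie in 3 places in the mouse genome (GRCm38, GENCODE vM21). On chromosome 11, a first group stands in 1 row on the plus strand. It holds Ccl2 at chr11:82035571-82037453, Ccl7 at chr11:82045712-82047525, Ccl12 at chr11:82101845-82103400 and Ccl8 at chr11:82115185-82116799. A second group lies 1409 kb further along: Ccl5 at chr11:83525778-83530518, Ccl9 at chr11:83572919-83578636, Ccl6 at chr11:83587882-83593087 and Ccl3 at chr11:83647844-83649355, all on the minus strand, and Ccl4 at chr11:83662584-83664683 on the plus strand. Ccl24 lies alone on the minus strand of chromosome 5, at chr5:135569937-135573049.

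RefSeq promoter sequence (GRCm38.p6) was matched for 5 of the 10 members: Ccl3, Ccl6, Ccl8, Ccl9 and Ccl12. The 250 bases before the start of Ccl12 (chr11:82101595-82101844, plus strand) and of Ccl8 (chr11:82114935-82115184, plus strand) are shown because these neighbouring genes were the members furthest above control in the WD library, as described further on. Capitals mark a TATAAA match, 31 to 26 bases before the start in Ccl12 and 32 to 27 bases before it in Ccl8.
Ccl12: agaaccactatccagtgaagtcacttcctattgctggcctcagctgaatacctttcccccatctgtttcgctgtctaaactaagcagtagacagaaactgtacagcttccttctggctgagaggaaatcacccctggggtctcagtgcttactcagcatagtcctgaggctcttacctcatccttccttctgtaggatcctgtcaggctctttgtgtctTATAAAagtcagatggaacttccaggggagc
Ccl8: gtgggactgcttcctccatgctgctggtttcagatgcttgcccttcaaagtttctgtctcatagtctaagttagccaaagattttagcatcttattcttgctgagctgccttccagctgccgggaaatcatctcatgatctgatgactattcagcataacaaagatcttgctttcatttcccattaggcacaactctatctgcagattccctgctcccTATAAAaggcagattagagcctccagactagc
The 2 windows are identical at 161 of 250 bases in a global alignment (64.4%), the highest share of the 10 pairs among the 5 promoters, whose range was 56.4% to 64.4%. TATAAA on either strand is held by 12.4% of all 32851 RefSeq promoter windows of this length, and besides these 2 it was found in the Ccl9 window. The Ccl9 window also held a match to an NF-kB motif (GGG, then any 2 bases, then TTTCC) and to the AP-1 motif TGANTCA, which 1.41% and 6.75% of all windows hold on either strand. The interferon-stimulated response element (GAAA, any 2 bases, GAAA), held by 2.98% of windows, was not among the letters of any of the 5. A match is a description of letters, not a shown binding site.

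Macrophage/monocyte-like cells held most of the UMIs of 9 of the 10 members. Cell classes were named from markers in a joint clustering that left out all CC chemokine and receptor genes, so the levels below did not enter the classes. The macrophage/monocyte-like class had all 14 of its 14 markers in 25% or more of its cells and made up 36.0% of control cells, 18.9% in the library labelled HHcy and 51.0% under WD. Its share of a member's UMIs ran from 65.5% (Ccl3 in the library labelled HHcy) to 94.5% (Ccl24 in the WD library) across those 9 members and 3 libraries. Ccl5 was the exception, with 9.7%, 9.0% and 21.1% of its UMIs in this class in the control library, the library labelled HHcy and the WD library, the order in which values are listed throughout. With classes of 20 or more cells, 7 of the 10 members had their highest CPM in the same class in all 3 libraries, and 4 did when barcodes with markers of 2 lineages were kept. With classes of 10 or more cells, a limit chosen after the data were seen, all 10 did.

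B-like cells were used to read the level that free RNA in the droplets can give, although activated B cells can make some of these ligands. In B-like cells the 10 members stood at 2.42% to 25.3% of their macrophage/monocyte-like level, and 9 of them, all but Ccl5, stood at 2.42% to 8.68%. The macrophage genes Lyz2, C1qa and Csf1r stood there at 1.48% to 3.02%. Median depth was 7440.5, 6442 and 6636 UMIs in B-like cells and 7333, 8236 and 9121 in macrophage/monocyte-like cells. After each cell was thinned to 2000 UMIs, Ccl4 (in 55.8%, 48.3% and 70.3% of B-like cells as counted) was still detected in 20.02%, 18.7% and 31.9% of B-like cells, beside 76.7%, 72.1% and 83.1% of macrophage/monocyte-like cells. A class near the B-like level is therefore not called a source below.

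**Figure D1:**
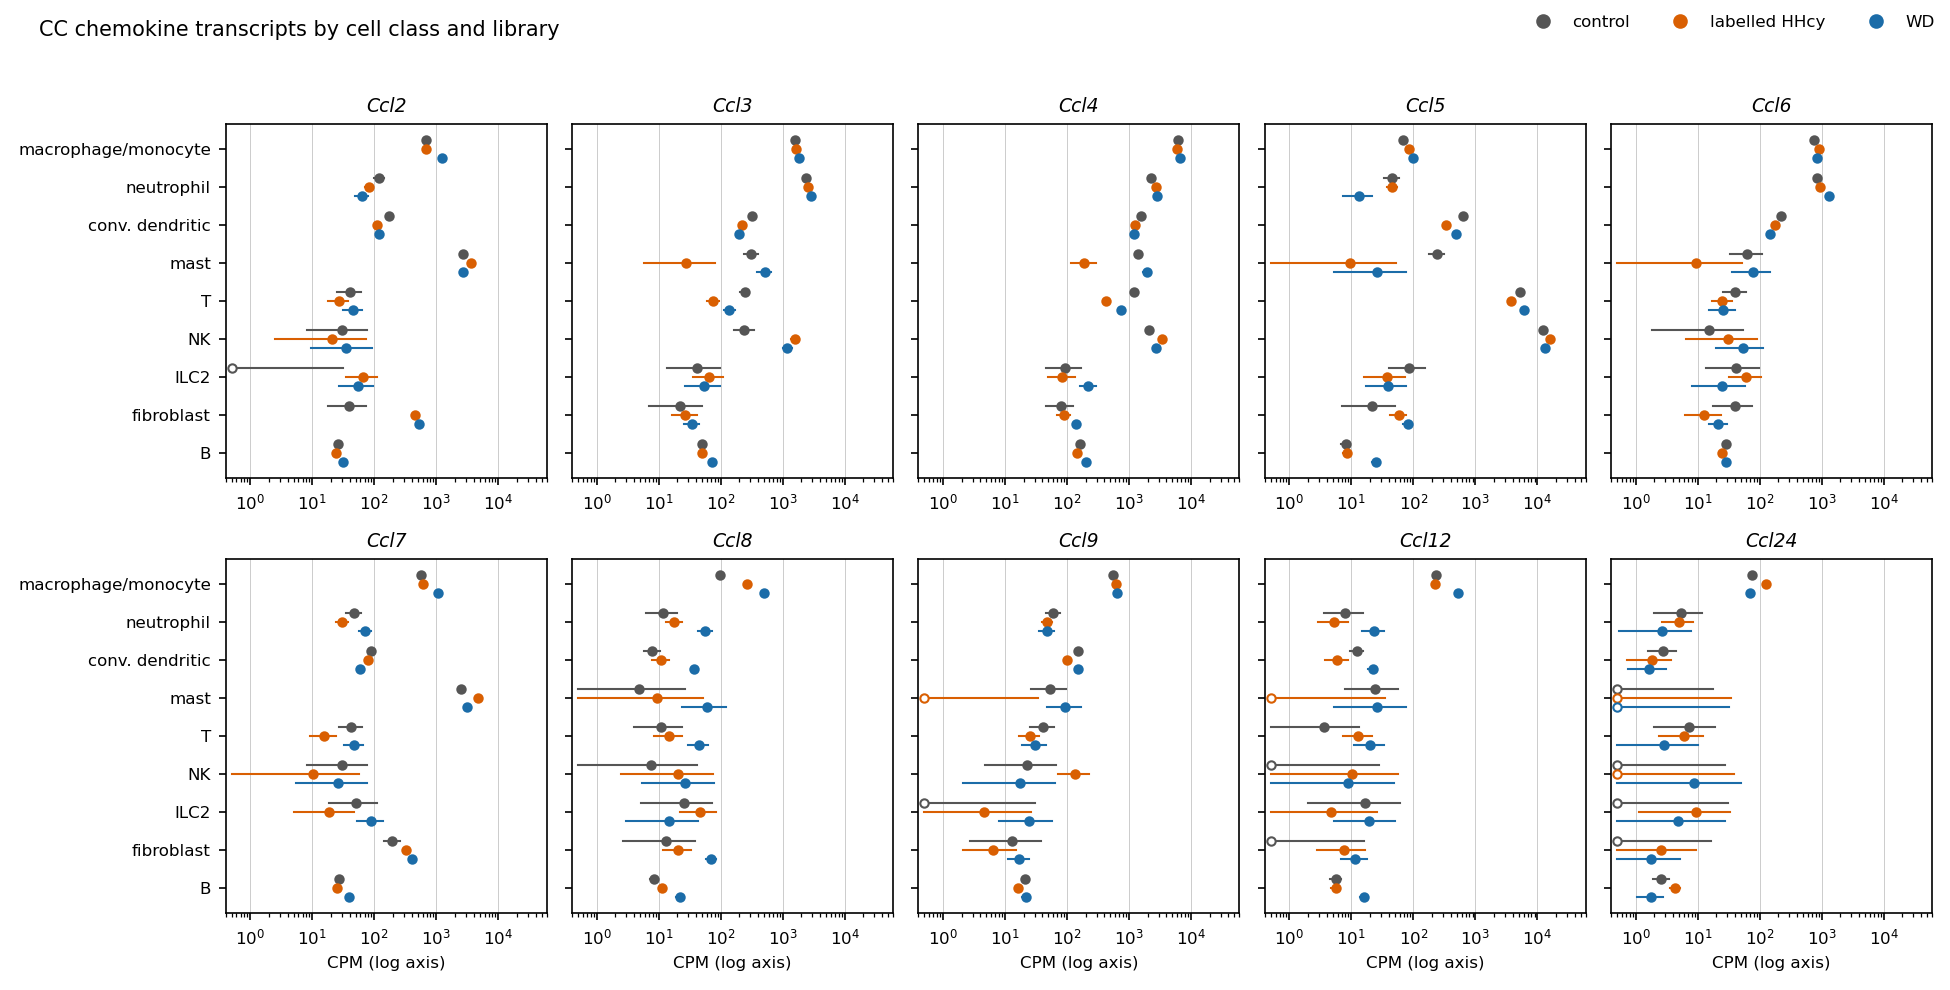
Level of each of the 10 CC chemokines by cell class and library, in CPM on a log axis. Points are class sums in 1 library, lines are 95% counting intervals, and open markers at the left edge stand for 0 UMIs; Ccl5 stands highest in NK-like and T-like cells, Ccl2 and Ccl7 in mast-like cells, and Ccl8, Ccl12 and Ccl24 in macrophage/monocyte-like cells.

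Ccl2 and Ccl7, attractants of CCR2-bearing monocytes, had their highest levels in mast-like cells. Mast-like cells, of which there were 35, 24 and 13, held Ccl2 at 2659, 3605 and 2678 CPM, against 680, 689 and 1228 CPM in macrophage/monocyte-like cells. Ccl2 was found in 100% of mast-like cells in each library as counted, and in 100%, 95.2% and 100% after thinning, beside 4.68%, 4.71% and 6.22% of thinned B-like cells. Ccl7 stood at 2533, 4682 and 3183 CPM in mast-like cells and at 571, 603 and 1063 CPM in macrophage/monocyte-like cells. The mast-like levels were above the macrophage/monocyte-like ones in each library, beyond the counting intervals for both genes, which cover counting error only here and throughout. Fibroblast-like cells, which had passed the CD45+ sort although Ptprc, the CD45 gene, was detected in 18.4% of them, held Ccl2 at 39.4, 449.9 and 523 CPM and Ccl7 at 197, 327 and 402 CPM. Because mast-like cells were few, macrophage/monocyte-like cells still held 75.7%, 74.0% and 89.2% of all Ccl2 UMIs.

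Ccl8 and Ccl12, the other members of the first row on chromosome 11, were concentrated in macrophage/monocyte-like cells. Ccl8 stood there at 97.1, 265 and 499.6 CPM, and the class held 82.3%, 82.4% and 88.2% of its UMIs. Among other named classes of 20 or more cells, its next highest level was 25.2 CPM in control ILC2-like cells, 46.6 CPM in ILC2-like cells of the library labelled HHcy and 69.3 CPM in WD fibroblast-like cells. Ccl12 stood at 231, 221 and 520.0 CPM in macrophage/monocyte-like cells, which held 90.3%, 88.5% and 93.5% of its UMIs, and no other named class of 20 or more cells passed 24.3 CPM. Clusters that took no name, 330, 311 and 328 cells in all, held Ccl8 at 21.3, 35.7 and 244 CPM and Ccl12 at 40.5, 18.5 and 135 CPM. Both genes were thus low outside the macrophage/monocyte-like class except in unnamed cells of the WD library.

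Ccl3 and Ccl4, neighbouring genes for inflammatory ligands, differed in their leading class. Ccl3 was highest in neutrophil-like cells, at 2395, 2553 and 2815 CPM, against 1561, 1664 and 1802 CPM in macrophage/monocyte-like cells. Ccl4 was highest in macrophage/monocyte-like cells, at 6113, 6020 and 6689 CPM, against 2295, 2736 and 2788 CPM in neutrophil-like cells. NK-like cells held Ccl4 at 2092, 3420 and 2759 CPM, from 20, 12 and 15 cells. Neutrophil-like cells held 7.9%, 22.6% and 5.1% of all Ccl3 UMIs, and their number was 198, 430 and 260. The neutrophil level split by maturity. Sub-cluster cells led by Il1b and Cxcl2 (118, 345 and 218 cells) held Ccl3 at 4156, 3403 and 3644 CPM. Those led by the granule genes Ngp, Camp and Ltf (80, 85 and 42 cells) held it at 360.5, 375 and 450.4 CPM. With the sub-cluster mix of control, the neutrophil log2 ratio of Ccl3 to control went from 0.09 to -0.38 in the library labelled HHcy. Under WD it went from 0.23 to -0.35.

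Ccl5, a ligand made by cytotoxic lymphocytes and by some dendritic cells, had its highest levels in lymphoid cells. NK-like cells held it at 12529, 16024 and 13434 CPM. CD8 T-like cells, with 40, 41 and 43 cells, held it at 17481, 16781 and 19248 CPM, and T-like cells as a whole at 5282, 3758 and 6100 CPM. Mature dendritic-like cells held 4116, 2692 and 2016 CPM, whereas the type 1 dendritic-like cells held 4.93, 6.20 and 56.8 CPM. T-like cells gave 24.0%, 39.2% and 31.1% of all Ccl5 UMIs, dendritic-like cells 31.9%, 11.5% and 19.4%, and NK-like cells 13.8%, 13.9% and 11.1%. Unnamed cells gave 18.2%, 20.5% and 14.3%. A small T sub-cluster that took no name, with 9, 10 and 6 cells, held Ccl5 at 7647, 8509 and 16220 CPM. CD8 T-like and NK-like cells were thus rich in Ccl5 in every library, while the share of UMIs each class contributed differed between libraries.

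Ccl6 and Ccl9, rodent CCR1 ligands that lie side by side, were myeloid in all 3 libraries. Ccl6 stood at 826, 931 and 1289 CPM in neutrophil-like cells and at 747, 918 and 852 CPM in macrophage/monocyte-like cells, and in the library labelled HHcy these 2 counting intervals overlapped. Within neutrophil-like cells it was again higher in the Il1b Cxcl2 sub-cluster, at 1450, 1235 and 1715 CPM, than in the Ngp Camp Ltf one, at 104, 153 and 71.7 CPM. With the sub-cluster mix of control, the neutrophil log2 ratio of Ccl6 to control went from 0.64 to -0.03 under WD. In the library labelled HHcy it went from 0.17 to -0.29. Ccl9 was highest in macrophage/monocyte-like cells, at 561, 611 and 629.6 CPM, with dendritic-like cells next among named classes of 20 or more cells, at 153, 98.5 and 152 CPM. Unnamed cells held Ccl9 at 329, 213 and 387 CPM. Neutrophil-like cells held Ccl9 at 59.9, 48.2 and 47.8 CPM, so these neighbouring genes differed in their neutrophil level. Ccl24 was highest in macrophage/monocyte-like cells, at 74.9, 125 and 69.6 CPM, and no other named class of 20 or more cells passed 14.1 CPM.

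**Figure D2:**
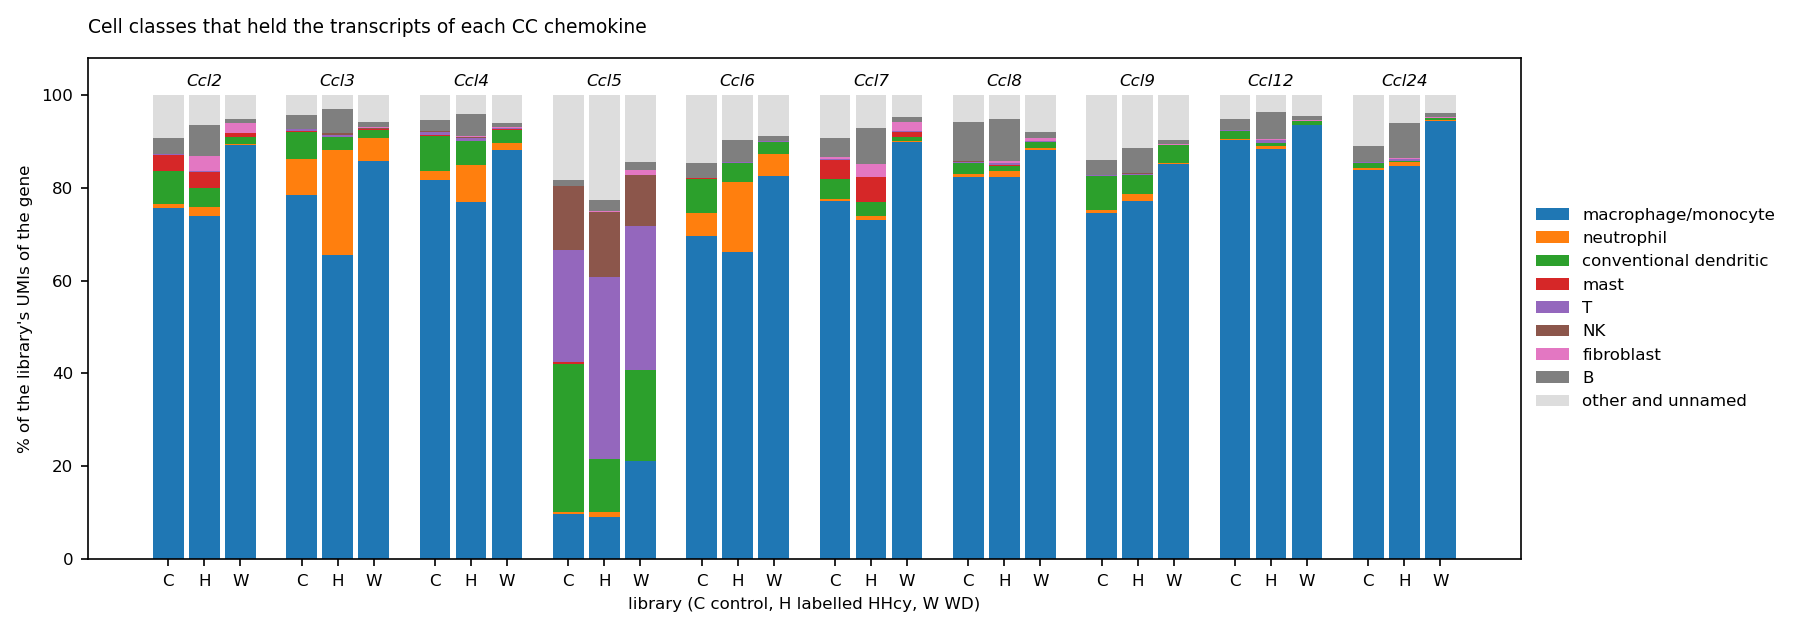
Share of each member's UMIs, in percent, held by each cell class in the 3 libraries. Macrophage/monocyte-like cells held between 65.5% and 94.5% for the 9 members other than Ccl5, and Ccl5 was divided among T-like, dendritic-like, NK-like, macrophage/monocyte-like and unnamed cells.

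Within macrophage/monocyte-like cells the members separated by sub-cluster. Resident-like macrophages, led by Pf4, Selenop, Mrc1 and Cd163, made up 24.1%, 29.7% and 23.7% of the class and were the highest sub-cluster in all 3 libraries for 4 members: Ccl6, Ccl7, Ccl8 and Ccl9. In these cells Ccl7 stood at 2109, 1746 and 1951 CPM, against 38.3, 29.0 and 69.8 CPM in non-classical monocyte-like cells. Ccl8 stood at 476, 1056 and 2135 CPM in resident-like macrophages. In classical monocyte-like cells Ccl8 stood at 6.36, 9.62 and 35.7 CPM, beside 8.43, 11.2 and 22.1 CPM in B-like cells. Ccl6 stood at 1324, 1904 and 1884 CPM and Ccl9 at 1063, 1129 and 1114 CPM in resident-like macrophages. Unlike Ccl7 and Ccl8, Ccl6 also stood well above the B-like level in classical monocyte-like cells, at 864, 875 and 754 CPM.

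Ccl3 and Ccl4 had another leading sub-cluster, a small one led by the metalloproteinase genes Mmp12 and Mmp13, with 55, 53 and 29 cells. It held Ccl3 at 3743, 4717 and 4062 CPM and Ccl4 at 16163, 21072 and 16006 CPM. Resident-like macrophages held Ccl4 at 8368, 5399.5 and 5529 CPM. The Mmp12 Mmp13 cells were thus above the resident-like ones for Ccl4 in each library, and low for Ccl6, at 198, 170.5 and 209 CPM.

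Ccl2, Ccl12 and Ccl24 did not keep 1 leading sub-cluster in all libraries. Ccl2 stood at 1852, 1675 and 1468 CPM in resident-like macrophages and at 955, 1067 and 2207 CPM in the sub-cluster led by Lgals3, Spp1 and Fabp5. Ccl12 stood at 949, 661 and 968 CPM in resident-like macrophages and at 297, 554 and 971 CPM in a sub-cluster led by C1qb, Ms4a7 and Cd72. In classical monocyte-like cells Ccl12 stood at 5.57, 7.36 and 18.4 CPM, beside 5.59, 5.57 and 16.0 CPM in B-like cells. Ccl24 stood at 199, 387 and 208 CPM in resident-like macrophages and at 255, 305 and 198 CPM in the sub-cluster led by Fn1 and Prg4. That sub-cluster held Ccl12 at only 6.12, 9.03 and 46.8 CPM, so the cells rich in Ccl24 were of 2 kinds that differed in Ccl12.

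Pairs of members were also read in the same cells, after thinning to 2000 UMIs, as the odds of detecting one given the other. In macrophage/monocyte-like cells the odds ratio was 6.71, 6.50 and 6.27 for Ccl3 with Ccl4 and 8.10, 5.08 and 5.94 for Ccl2 with Ccl7. It was 8.46, 5.98 and 4.68 for Ccl7 with Ccl12. Ccl8 with Ccl12 gave 3.84, 3.70 and 2.23 over the whole class but 0.97, 1.63 and 0.91 within resident-like macrophages. Ccl2 with Ccl7 still gave 5.35, 2.53 and 4.22 within them, so the 2 pairs differed once read inside 1 sub-cluster. Ccl3 with Ccl6 was below 1 in the class, at 0.80, 0.53 and 0.77, and within resident-like macrophages, at 0.39, 0.43 and 0.44. Cells of 1 library share its free RNA and are not replicates.

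The genes whose level ran most like each member were found among 12263 genes, by Pearson's r of log2(CPM + 1) over 28 points. Each point is a class with 20 or more cells in 1 library, so points share libraries, depth and free RNA, and r is a description only. Ccl3 was most like Ccl4 (r = 0.93), and Ccl2 was most like Ccl7 (r = 0.85). Ccl7 was most like the immediate early gene Egr1 (0.86) and Vwa5a (0.85), and then Ccl2. Ccl12 was most like C3ar1 (0.88), Ms4a7 (0.87) and C1qa (0.85), which are macrophage genes. Ccl8 was most like F7 (0.78), Ccl12 (0.78) and Cd5l (0.76), and Ccl24 was most like Folr2 (0.86), Vsig4 (0.84) and Hal (0.82). Ccl6 was most like Tlr2 (0.96), Lyz2 (0.96) and Gm9733 (0.94), and Ccl9 most like Ms4a6d (0.92). Ccl5 was most like Ppm1j (0.86), Stk32c (0.84) and Fasl (0.83), the last encoding a death ligand of cytotoxic lymphocytes.

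Between libraries, Ccl8 was the member furthest from control in macrophage/monocyte-like cells in both comparisons. From 97.1 CPM in the control library it stood 2.73-fold higher in the library labelled HHcy, at 265 CPM (log2 ratio 1.45, counting interval 1.36 to 1.53), and 5.14-fold higher in the WD library, at 499.6 CPM (2.36, 2.29 to 2.44). It was detected in 15.9%, 21.6% and 32.9% of these cells, and after thinning, which left out 163, 91 and 182 shallower cells, in 8.49%, 13.4% and 18.2%. In thinned B-like cells it was detected in 1.96%, 2.61% and 3.98%. Ccl8 was the 1 member of 10 past 2-fold in the library labelled HHcy, where 2.49% of the 11784 genes tested were past 2-fold either way. In the WD library 2 of 10 members were past 2-fold, Ccl8 and Ccl12, against 2.76% of 12463 genes. Without cells of 10 or more Apoe UMIs the log2 ratio of Ccl8 was 1.53 in the library labelled HHcy and 2.36 under WD.

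Ccl12 stood at 231 CPM in control macrophage/monocyte-like cells, 221 CPM in the library labelled HHcy and 520.0 CPM in the WD library, where it was 2.25-fold higher (log2 ratio 1.17, 1.12 to 1.22). It was detected in 29.4%, 30.4% and 50.04% of cells as counted and in 18.4%, 18.9% and 32.2% of thinned cells, beside 0.981%, 1.14% and 3.19% of thinned B-like cells. Ccl7 and Ccl2 stayed short of 2-fold under WD, with log2 ratios of 0.90 and 0.85, and near control in the library labelled HHcy, at 0.08 and 0.02. Without Apoe-high cells the latter were -0.05 and -0.02, and Ccl12 was at -0.02 there. In the class as a whole the members of the first chromosome 11 row were thus all above control in the WD library, with Ccl8 furthest. Ccl3, Ccl4, Ccl6 and Ccl9 of the second row lay between 0.13 and 0.21 in the WD library, and Ccl5 at 0.51 from the low level of 68.3 CPM. The median log2 ratio of the 10 members was 0.11 in the library labelled HHcy and 0.36 under WD, beside -0.04 and -0.01 over all genes tested.

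Ccl24, the eosinophil attractant, stood at 74.9 CPM in the control library, 125 CPM in the library labelled HHcy (log2 ratio 0.74) and 69.6 CPM under WD (-0.10). Its level in the library labelled HHcy was 301 CPM in macrophage/monocyte-like cells with 10 or more Apoe UMIs and 86.9 CPM in the others. Without the Apoe-high cells the log2 ratio was 0.21 (0.08 to 0.34). Of those 195 cells, 53.3% were in the resident-like sub-cluster and 17.9% in the Fn1 Prg4 one, the sub-clusters in which Ccl24 was highest. Among the other members, Ccl8 was lower in the Apoe-high cells (187 against 281 CPM) and Ccl7 higher (829 against 555 CPM).

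**Figure D3:**
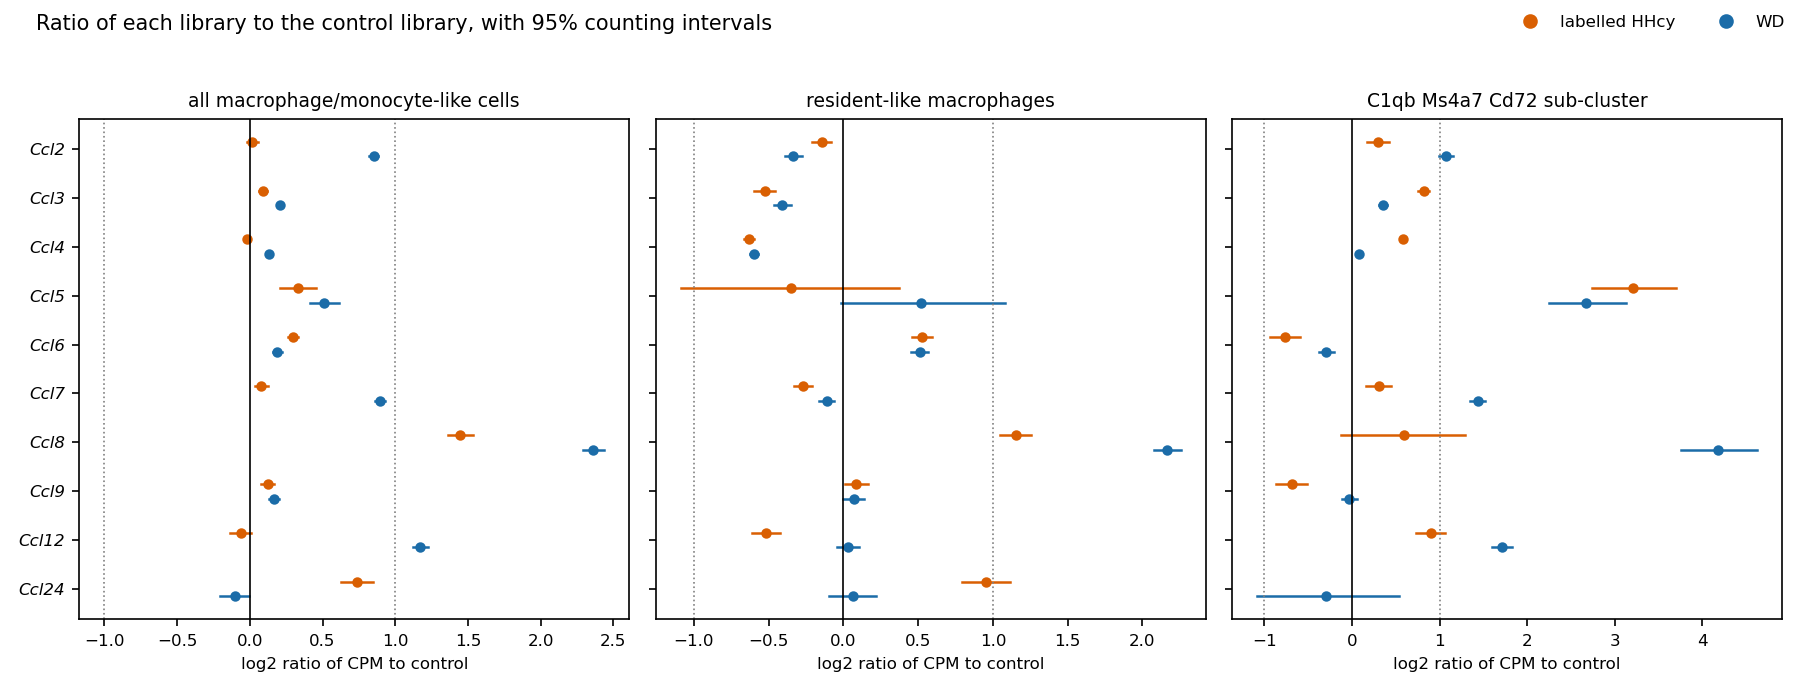
Log2 ratio of each member to control in macrophage/monocyte-like cells, in resident-like macrophages and in the C1qb Ms4a7 Cd72 sub-cluster, with 95% counting intervals and dotted lines at 2-fold. The 3 panels have different x axes; Ccl8 lies past the line in the WD library in all 3, and Ccl12 in resident-like macrophages lies at 0.03 under WD and at -0.52 in the library labelled HHcy.

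The make-up of the macrophage/monocyte-like class differed between libraries, and the members' ratios were therefore read within sub-clusters. The C1qb Ms4a7 Cd72 sub-cluster was 10.6% of the class in the control library, 7.81% in the library labelled HHcy and 25% under WD. With sub-clusters weighted as in the control library, the WD log2 ratio was 0.68 for Ccl12, 0.54 for Ccl2, 0.52 for Ccl7 and 2.25 for Ccl8. Ccl8 thus kept its ratio under the control mix, and Ccl12 lay under 2-fold.

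In resident-like macrophages, Ccl8 was the 1 member past 2-fold in each comparison, beside 2.35% of genes in the library labelled HHcy and 1.98% under WD. From 476 CPM its log2 ratio was 1.15 in the library labelled HHcy and 2.17 under WD, and without Apoe-high cells the first was 1.46. The 10 cells with most Ccl8 UMIs held 42.4%, 40.0% and 32.1% of the sub-cluster's Ccl8 UMIs. Without 10 such cells in each library the log2 ratios were 1.21 and 2.40. The cells numbered 473, 365 and 647, so 10 cells are not an equal part of each library. Ccl12, at 949, 661 and 968 CPM, had log2 ratios of -0.52 and 0.03 there, and the first was -0.32 without Apoe-high cells. Ccl2 lay at -0.15 and -0.33, and Ccl7 at -0.27 and -0.11, so neither was above control in these cells. Ccl24 had 0.96 in the library labelled HHcy and 0.06 under WD, and the first was 0.62 without Apoe-high cells. Ccl4 lay under control in both libraries, at -0.63 and -0.60, and Ccl3 likewise, at -0.53 and -0.41. Ccl6 lay above control in both, at 0.52 and 0.51.

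In the C1qb Ms4a7 Cd72 sub-cluster, 5 of 10 members were past 2-fold in the WD library, all higher, beside 3.93% of the genes tested. Ccl8 stood at 19.9 CPM in control and 359 CPM in WD cells, 18.1-fold higher (log2 ratio 4.18). Ccl5 stood at 19.9 and 127 CPM (2.67), Ccl12 at 297 and 971 CPM (1.71), Ccl7 at 542 and 1464 CPM (1.43) and Ccl2 at 651 and 1371 CPM (1.07). These cells numbered 209 in the control library and 683 in the WD library. The 10 cells with most Ccl8 UMIs held 70.2% of the sub-cluster's Ccl8 UMIs in the control library and 47.7% under WD. Without 10 such cells in each library the log2 ratio was 4.93. The 10 cells are a larger part of 209 cells than of 683, so more of the control level was taken out. This ratio therefore cannot show whether a few cells made the difference. In the library labelled HHcy, with 96 of these cells, Ccl5 was the 1 of 9 tested members past 2-fold, at 184 CPM (3.21), beside 3.85% of genes; its 10 highest cells held 96.1% of the UMIs. Without 10 such cells in each library 7 and 12 UMIs were left, under the 30 needed for a ratio.

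Elsewhere in the class, Ccl8 in the WD library lay above control by log2 ratios of 1.68 to 2.91 in the sub-clusters of non-classical monocyte-like, classical monocyte-like, Fn1 Prg4, Mmp12 Mmp13, Lgals3 Spp1 Fabp5 and 1 mixed kind of cells. Its WD level in the first 5 of these was 35.7 to 76.5 CPM, beside 22.1 CPM in WD B-like cells. In the Fn1 Prg4 sub-cluster, which gave 2.91, 1 WD cell held 95 of 130 Ccl8 UMIs. Without the highest cell in each library the WD level was 16.9 CPM and the log2 ratio 1.45. The Mmp12 Mmp13 ratio rests on 22 WD and 9 control UMIs, and without such cells fewer than 30 UMIs were left. In the Lgals3 Spp1 Fabp5 sub-cluster 10 cells held 78.0% of the Ccl8 UMIs in the WD library and 84.6% in control. The ratio stayed under 2-fold in the remaining sub-clusters, a mixed one led by Plac8, Gngt2 and Nr4a1 (296 and 574 CPM, log2 ratio 0.96) and the cycling cells (123 and 242 CPM, 0.98). In B-like cells themselves Ccl5, Ccl12 and Ccl8 were the 3 of 10 members past 2-fold under WD, with log2 ratios of 1.61, 1.52 and 1.39, beside 1.76% of genes. For Ccl5, 1 WD cell held 146 UMIs and the other WD cells 103, and without the highest cell in each library its log2 ratio was 0.42. In the library labelled HHcy 0 of 10 were past 2-fold in B-like cells, beside 4.58% of genes. The B-like level of Ccl8 and Ccl12 thus differed between the control and WD libraries. Whether it is free RNA, and its part in ratios of cells with low levels, was not tested. In the library labelled HHcy, Ccl8 stood at 11.5 CPM in non-classical monocyte-like cells, as in control. Fewer than the 30 UMIs needed for a ratio were summed in Fn1 Prg4 (10 against 12 UMIs, 6.94 against 8.17 CPM) and Mmp12 Mmp13 cells (3 against 9 UMIs, 5.81 against 14.2 CPM). The same was true of classical monocyte-like cells (17 against 8 UMIs, 9.62 against 6.36 CPM). B-like cells held Ccl8 at 11.2 and 8.43 CPM in these 2 libraries. The 8 cycling cells held 3 Ccl8 UMIs, at 18.2 CPM against 123 in control. Ccl8 was above control by less than 2-fold in C1qb Ms4a7 Cd72 cells (29.9 against 19.9 CPM). The same held in both mixed kinds (109 against 69.2 and 520 against 296). In the Lgals3 Spp1 Fabp5 sub-cluster of that library, Ccl8 stood at 301 CPM against 11.97 CPM in control, but 10 cells held 99.4% of those UMIs. Without 10 such cells in each library 2 and 4 UMIs were left, too few for a ratio.

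Ratios were read in the same way in the larger of the other classes. Neutrophil-like cells had 0 of 8 tested members in the library labelled HHcy, beside 11.4% of genes, and 3 of 9 in the WD library, beside 6.77%: Ccl8 (log2 ratio 2.28) and Ccl12 (1.52) higher, and Ccl5 (-1.75) lower. For Ccl5, 1 control cell held 28 of 50 UMIs, and without the highest cell in each library the log2 ratio was -0.67. All genes tested in them had a median of -0.24 in the first comparison and -0.11 in the second. The WD levels of Ccl8 and Ccl12 in neutrophil-like cells were 56.6 and 23.0 CPM, beside 22.1 and 16.0 CPM in B-like cells. Dendritic-like cells had 1 of 9 in each comparison: Ccl8 in the WD library (2.27), beside 3.14% of genes, and Ccl12 in the library labelled HHcy (-1.03), beside 3.16%. In the first, 1 WD cell held 94 of 207 Ccl8 UMIs, and without the highest cell in each library the level fell from 37.7 to 20.6 CPM, beside 22.1 CPM in B-like cells, and the log2 ratio to 1.66. The Ccl12 ratio was -0.98 without such cells. T-like cells of the library labelled HHcy had 3 of 7, all lower, Ccl3 (-1.70), Ccl4 (-1.48) and Ccl7 (-1.44), beside 5.29% of genes. Those of the WD library had 1 of 8, Ccl8 (2.01), beside 4.11%. The Ccl8 ratio rests on 31 UMIs in WD and 6 in control T-like cells, and B-like cells held Ccl8 at 22.1 and 8.43 CPM there. The Ccl7 ratio rests on 18 UMIs in the library labelled HHcy and 23 in control, where B-like cells held 25.2 and 27.2 CPM. The part of free RNA in these low T-like counts was not tested. For Ccl3, 1 control T-like cell held 55 of 134 UMIs, and without the highest cell in each library the log2 ratio was -1.39. CD8 T-like cells were 35.1%, 23.4% and 35.2% of T-like cells. In them 0 of 3 tested members were past 2-fold in the library labelled HHcy, beside 4.82% of genes. In the unnamed T sub-cluster led by Satb1 and Lef1 (21.9%, 35.4% and 15.6%), 1 of 2 was, Ccl5, higher, beside 12.6%. The part of this mix in the T-like ratios was not tested. Mast-like cells of the library labelled HHcy had 3 of 5, all lower, Ccl3 (-3.47), Ccl4 (-2.90) and Ccl5 (-4.67), beside 10.1% of genes, from 24 and 35 cells. Without the highest cell in each library Ccl4 was at -1.88, and Ccl3 and Ccl5 were left with fewer than 30 UMIs. In fibroblast-like cells 2 of 4 tested members were past 2-fold in the library labelled HHcy and 4 of 8 in the WD library, all higher, beside 12.7% and 12.5% of genes. Ccl2 was furthest, with log2 ratios of 3.51 and 3.73 against 9 UMIs in 31 control cells. Without the highest cell in each library these were 2.60 and 3.25, and Ccl5, past 2-fold in both with all cells, was under 2-fold at 0.60 under WD and left with fewer than 30 UMIs in the library labelled HHcy.

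Genes of the interferon response, many of which are induced by type I interferon in macrophages, were read beside the members, together with genes that react to tissue dissociation. In macrophage/monocyte-like cells 0 of 18 interferon-stimulated genes were past 2-fold in the library labelled HHcy, beside 2.49% of all genes tested. In the WD library 2 of 18 were, Ifit3 (1.08) and Ifit3b (1.09), beside 2.76%. Their medians were 0.09 and 0.48. In the C1qb Ms4a7 Cd72 sub-cluster, where 5 members were past 2-fold, 11 of 18 interferon-stimulated genes were past 2-fold in the WD library. All 11 were higher, beside 3.93% of genes past 2-fold either way. The median of the 18 was 1.19, and Ifit3b was furthest at 3.09. Dissociation genes gave 0 of 20 past 2-fold in the whole class in either comparison, with medians of -0.16 and -0.10. NF-kB feedback genes likewise gave 0 of 14, with medians of -0.03 and -0.17. Beside shares of 2.49% and 2.76% over all genes, a count of 0 in lists this short does not set them apart. What links these lists to the members was not tested.

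Receptors of these ligands were read in the same cells. In macrophage/monocyte-like cells Ccr2 stood at 217, 287 and 217 CPM and Ccr1 at 75.2, 93.7 and 65.8 CPM. Of 15 receptor genes 6 were tested in each comparison in this class, and 0 were past 2-fold, beside 2.49% and 2.76% of all genes. Ccr1, the receptor of Ccl3, Ccl6 and Ccl9, was highest in neutrophil-like cells, at 664, 871 and 946 CPM, which were also the leading class of Ccl3 and Ccl6. Ccr2, the receptor of Ccl2, Ccl7 and Ccl12, was highest in ILC2-like cells, at 622, 768 and 751 CPM. Ccr7, the lymph node homing receptor, stood at 665, 442 and 903 CPM in dendritic-like cells.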

How the data were processed

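Droplet-based 3′ single-cell RNA sequencing (Chromium v3 chemistry, per the labels' protocols) was done on 1 library per group. The deposited matrices hold raw UMI counts per gene and barcode, made by the authors with Cell Ranger. The version is 4.0.0 per the file headers and 2.2.0 per the submitters' processing notes, which name the mm10 build. How reads shared by near-identical genes were counted is not given in the sources used here. Total counts were 66789257, 105180370 and 93164076 UMIs in 7512, 9753 and 8557 barcodes for the control library, the library labelled HHcy and the WD library.

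Barcodes with 200 or more genes and at most 10% mitochondrial UMIs were kept (6038, 8155 and 6710). Those carrying markers of 2 or more of 5 lineages, which stand in for doublets, were left out: 584, 1658 and 1353. The limits behind that step were set after the data were examined. Cells of all libraries were clustered together without batch correction, on 2000 variable genes free of CC chemokines and receptors, 30 principal components and 20 neighbours (Leiden, resolution 1, seed 1, with sub-clusters at 0.5, or 1 for T-like cells). A cluster took a name when 3 or more listed markers were each found in 25% or more of its cells, and this naming limit too was set after the data were examined. A level is the UMI sum of a class in a library on the counts-per-million (CPM) scale, with an exact Poisson 95% interval; shares of cells have Clopper-Pearson intervals and ratios exact conditional binomial ones. A gene was tested with 30 or more UMIs over both libraries and called past 2-fold either way. Shares of cells were read after thinning each cell to 2000 UMIs. The calculation was tested on simulated data.

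All 10 members are named. Other genes named had 50 CPM or more in their leading class, were a class's leading receptor, lay furthest from 0 in a comparison or led a sub-cluster, or were among the 3 genes most like a member. The members and gene lists were chosen with earlier results of these data known. Alternatives changed the scaling, the filters, the clustering, the naming of cells, the depth, the weighting of cells and the Apoe-high cells. Leaving out the 10 cells, or the 1 cell, with most UMIs of a gene in each library was chosen after the data were seen. A fixed number of cells is a larger part of a smaller group, so this step is not equal between libraries. Python 3.11.15, numpy 2.4.6, scipy 1.17.1, pandas 2.3.3, scikit-learn 1.9.0, leidenalg 0.10.2, igraph 0.11.9 and matplotlib 3.10.9 were used.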

Additional observations from a re-analysis of the deposited data

Results flagged for a closer look

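The barcodes left out for carrying both B and myeloid markers (336, 862 and 674 in the control library, the library labelled HHcy and the WD library) hold their own reading of the members. They entered none of the member levels and ratios printed above. They did enter each library's Apoe level and total counts, and the count of leading classes made with barcodes of 2 lineages kept. In them Ccl8 stood at 111 CPM in the control library and 500.5 CPM in the WD library, a log2 ratio of 2.17. Ccl12 stood at 199 and 413 CPM there, a log2 ratio of 1.05. Both lay past 2-fold in the same direction as in macrophage/monocyte-like cells of the same 2 libraries. In the library labelled HHcy these barcodes held Ccl8 at 209 CPM, a log2 ratio of 0.91 and so short of 2-fold. In macrophage/monocyte-like cells of that library Ccl8 was past 2-fold. Ccl12 stood at 204 CPM in the left-out barcodes of that library, a log2 ratio of 0.04. These barcodes share those libraries and their free RNA and are not a replicate.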

How the results depend on the processing

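Ccl8 alone was past 2-fold in macrophage/monocyte-like cells of the library labelled HHcy under each of the 13 alternatives, so that count stayed at 1. In the WD library the count was 2 (Ccl8 and Ccl12). It was 1, Ccl8 only, with cells thinned to 1000 UMIs (Ccl12 0.98), with cells weighted equally (Ccl12 0.98) and with the sub-cluster mix of control (Ccl12 0.68). It stayed at 2 under the other 10. The count of members with the same leading class in all libraries went from 7 to 4 with barcodes of 2 lineages kept, where Ccl4, Ccl9, Ccl12 and Ccl24 kept theirs, and the cause was not tested. Of 240 values of single members under an alternative, 142 stayed within the counting interval of the reported value and 98 left it. No value past 2-fold as reported changed sign. The widest move was Ccl5 in T-like cells of the library labelled HHcy, from -0.49 to 1.58 with up to 20% mitochondrial UMIs, and the cause was not tested. Ccl24 in macrophage/monocyte-like cells of that library went from 0.74 to 0.21 without Apoe-high cells. Counting intervals leave out variation between mice. No paired analysis was possible because each group is 1 library and the labels give no replicate numbers. In small classes (mast-like, NK-like, fibroblast-like) few cells limit each value.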

Other observations

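CC chemokines outside the 10 had sources of their own. Ccl22, a ligand of CCR4, was highest in dendritic-like cells, at 405, 206 and 526 CPM in the control library, the library labelled HHcy and the WD library. Ccl1, a ligand of CCR8, was highest in ILC2-like cells, at 454, 186 and 447 CPM, from 23, 32 and 34 cells. Of 11 such genes, 6 were tested in macrophage/monocyte-like cells of the WD library. Of these, 4 were past 2-fold, all higher, beside 2.76% of 12463 genes. Ccl17 stood there at 0.76 and 11.4 CPM in the control and WD libraries (log2 ratio 3.90), and Ccl22 at 2.69 and 15.8 CPM (2.56). Both levels are a small part of those in dendritic-like cells, and the part of free RNA in them was not tested.

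Among the receptors, Ccr7 in T-like cells stood at 55.0 CPM in the control library and 256 CPM in the library labelled HHcy (log2 ratio 2.22). Ccr6, the receptor of Ccl20, stood in B-like cells at 40.5 and 93.9 CPM in the same libraries (1.21).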
